A study of Mus musculus with 2 samples.

Results

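Red blood cells and reticulocytes, the youngest circulating red cells, were identified in single-cell RNA sequencing libraries of mouse retina as cells dominated by haemoglobin transcripts. The cells were selected on their globin share alone. Every barcode was taken in which the unique molecular identifiers (UMIs, each standing for 1 captured RNA molecule) of Hba-a1, Hba-a2, Hbb-bs and Hbb-bt together made up at least 50% of its UMIs, with no filter on genes or mitochondrial reads. This gave 64 cells of 21391, with 22 of 10308 for wild type and 42 of 11083 for db/db. Both groups were C57BLKS mice of 13 weeks without treatment. The wild-type mice were Lepr wt/wt, also described as m/m, and the db/db mice were homozygous for the db allele of Lepr, the leptin receptor gene, and are named in the labels as a Lepr knockout model of type 2 diabetes. Each genotype was 1 droplet library (10x Genomics, 3′ chemistry) from the pooled retinas of 2 mice. The labels give a target of fewer cells per channel than the barcodes in each matrix, and the number of channels is not given in the sources used here. Whether the animals were perfused is not given there either. A single library stood for each genotype, so differences between genotypes were not tested and have no replicate check. All intervals are 95% intervals that cover counting error only.

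Mammalian red cells lose their nucleus before they enter the blood, so the RNA they carry is left over from their precursors. Reticulocytes still hold ribosomes, mitochondria and messenger RNA, which are cleared by autophagy and by ubiquitin-dependent breakdown while the cell matures. Haemoglobin consists of alpha and beta chains around haem, and Alas2 makes the first intermediate of haem in erythroid cells. Hbb-bs and Hbb-bt are the adult beta chain genes of the mouse reference strain, next to each other on chromosome 7. In the retina such cells come from the blood in its vessels.

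The regulatory sequences before the start sites of the genes that dominate these cells are shown because they carry the short motifs for which globin promoters are known. Each is the stretch of 250 bases before the RefSeq start (build GRCm38.p6), written in the direction of transcription. Capitals mark matches on either strand, which can overlap. The motifs searched were the GATA motif (GATA with A or T before it and A or G after it), CACCC, and the words CCAAT and TATAA.
Hbb-bs, chr7:103827929-103828178, minus strand: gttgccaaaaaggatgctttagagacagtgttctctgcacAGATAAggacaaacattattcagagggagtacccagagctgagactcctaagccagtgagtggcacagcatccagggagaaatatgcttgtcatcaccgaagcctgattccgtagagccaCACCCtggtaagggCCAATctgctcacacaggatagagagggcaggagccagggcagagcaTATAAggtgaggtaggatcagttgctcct
Hbb-bt, chr7:103813924-103814173, minus strand: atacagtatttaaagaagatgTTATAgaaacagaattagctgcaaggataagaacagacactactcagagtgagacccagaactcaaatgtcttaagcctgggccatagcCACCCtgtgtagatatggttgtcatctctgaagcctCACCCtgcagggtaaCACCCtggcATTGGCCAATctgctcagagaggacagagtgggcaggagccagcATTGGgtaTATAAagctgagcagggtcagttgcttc
Hba-a1, chr11:32283422-32283671, plus strand: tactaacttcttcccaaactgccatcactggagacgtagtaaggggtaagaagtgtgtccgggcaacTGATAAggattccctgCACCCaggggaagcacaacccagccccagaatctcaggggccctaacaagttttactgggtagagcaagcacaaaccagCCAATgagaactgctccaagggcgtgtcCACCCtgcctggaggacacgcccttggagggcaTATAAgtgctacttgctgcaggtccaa
Alas2, chrX:150547167-150547416, plus strand: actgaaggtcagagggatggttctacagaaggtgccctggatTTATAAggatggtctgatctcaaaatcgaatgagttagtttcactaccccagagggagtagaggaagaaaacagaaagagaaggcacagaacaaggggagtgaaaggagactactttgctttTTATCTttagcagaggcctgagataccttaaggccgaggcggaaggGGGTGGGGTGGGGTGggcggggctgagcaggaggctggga

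The Hbb-bs stretch holds 1 match to each of the 4 motifs. The Hbb-bt stretch holds no GATA match, 3 CACCC matches, 3 CCAAT matches and 2 TATAA matches. The Hba-a1 stretch holds 1 GATA, 2 CACCC, 1 CCAAT and 1 TATAA match, and that of Hba-a2 is the same sequence shifted by 3 bases, identical at 247 of 247 bases compared. The Alas2 stretch holds 1 GATA, 3 CACCC (the G-rich run on the other strand), no CCAAT and 2 TATAA matches. Such words are common. Of 27025 promoter stretches of the same length, 27.1% hold the GATA motif, 51.3% CACCC, 34.5% CCAAT and 23.5% TATAA. A match is a description of the sequence and not evidence that a factor binds there.

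The selected cells stood far from nearly all others on the measure that chose them. The lowest globin shares inside the threshold were 67.0% and 74.2% for wild type and 51.6%, 54.3% and 56.1% for db/db. Just outside it lay wild-type cells at 25.3% and 22.1% and db/db cells at 45.6%, 42.6% and 42.2%. The db/db cell at 45.6% had 15350 UMIs and 3401 detected genes, far more genes than any member. The highest share was 94.97% for wild type, whereas 17 of the 42 db/db cells reached at least 95%. The members held 97.2% of all UMIs of these 4 globin genes for wild type and 96.2% for db/db. Among all other cells, 4.95% and 10.2% had at least 1 globin UMI. Of 26 barcode sequences present in both libraries, 0 belonged to members.

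Alas2, the erythroid marker that the selection did not use, was nearly restricted to these cells. Of 394 Alas2 UMIs in both libraries, 373 (94.7%) lay in the 64 members, where 50 cells had at least 1. The remaining 21 UMIs were spread over 11 of 21327 other cells. Transcripts of the red cell membrane gene Slc4a1 (the band 3 anion exchanger) were sparse, at 8 UMIs in 7 members, and at 0 UMIs in all other cells. Markers of other blood cells were at or near 0. The 12 neutrophil, 12 lymphocyte and 14 microglia or macrophage markers had 0 UMIs in members, and the 12 platelet or megakaryocyte markers had 1. These markers go with the label of red cells.

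Members were rich in UMIs and poor in genes. Wild-type members had 1104 to 7983 UMIs (median 4888) and db/db members 537 to 14448 (median 8980), against medians of 2301 and 2033 in the other cells. Without globin the numbers were close, at a median of 422 UMIs in wild-type cells (249 to 1098) and 448 in db/db cells (189 to 2211). Detected genes had medians of 282 and 259.5 per cell, against 1253 and 1147 in the other cells. Each cell was also thinned to 500 UMIs, globin included. Members then kept a median of 44.5 genes for wild type and 34.5 for db/db. The 500 other cells drawn from each library kept 385 and 384. Globin filled much of the 500 UMIs of a member, so the selection itself lowers these numbers. Counted without globin and without thinning, members had medians of 277 and 256 genes. All results on non-globin RNA rest on 10142 UMIs for the wild-type members and 23932 for the db/db members. Genes with at least 20 UMIs over the members of both libraries were called measured, and there were 207 of them.

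Red cells were a small share of both libraries, and a larger one of the db/db library. They made up 0.213% of wild-type cells (exact Clopper-Pearson interval 0.134 to 0.323%) and 0.379% of db/db cells (0.273 to 0.512%). The ratio of the shares was 1.78 (exact conditional binomial interval 1.04 to 3.12). Among barcodes with at least 1000 UMIs it was 1.46 (0.84 to 2.60), and with a filter of at least 200 genes and at most 20% mitochondrial UMIs it was 1.56 (0.88 to 2.81), so the interval then included 1. A share of cells depends on the blood left in the vessels and on the dissociation, which cannot be told apart from the genotype with 1 library each.

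The adult beta chain genes gave most globin UMIs, as a description of the genes that chose the cells. Hbb-bs (ENSMUSG00000052305, GRCm38 chromosome 7, 103826534 to 103828096, minus strand) took 54.7% of the globin UMIs of wild-type and 50% of those of db/db members. Hba-a1 (ENSMUSG00000069919, chromosome 11, 32283511 to 32284465, plus strand) took 21.6% and 23.1%, and Hba-a2 (ENSMUSG00000069917, chromosome 11, 32296489 to 32297298, plus strand) 16.0% and 17.3%. Hbb-bt (ENSMUSG00000073940, chromosome 7, 103812524 to 103813996, minus strand) took 7.77% and 9.60%. Embryonic and fetal-type globins were at or near 0. Hbb-bh1, Hbb-bh2 and Hba-x had 0 UMIs, Hbb-y had 1 for db/db, and the theta globin gene Hbq1a had 5 and 8. The transcripts of Hba-a1 and Hba-a2 differ at 1 of 538 aligned bases and those of Hbb-bs and Hbb-bt at 45 of 624. Over the last 300 bases as annotated, the end that this chemistry reads, the alpha transcripts were 89.6% identical, with 33 differing columns of 316, gaps included. Most of these 33 columns are gaps and not differing bases, since the alignment is longer than the 300 bases. How the authors' counting divided reads between the alpha copies is uncertain, and their split (Hba-a2 at 42.5% and 42.8% of alpha UMIs) is given for completeness.

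The share of Hbb-bt varied widely from cell to cell. Hbb-bt made up 0.972 to 20.7% of beta UMIs in single wild-type cells (median 6.83%) and 0 to 25.9% in db/db cells (median 12.2%). Summed over cells it made up 12.4% (12.2 to 12.7%) for wild type and 16.1% (15.9 to 16.3%) for db/db, and the ranges over cells overlapped almost entirely. Cells with more UMIs had a larger Hbb-bt share, with a Spearman correlation over cells of 0.82 for wild type (n = 22) and 0.83 for db/db (n = 42). Both measures contain the cell's own Hbb-bt UMIs, so these coefficients are descriptions. Alpha UMIs made up 37.5% and 40.4% of alpha and beta UMIs together. The 4 cells with the highest alpha share, 62.6 to 82.8%, were all db/db cells of 1457 UMIs or fewer.

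**Figure D1:**
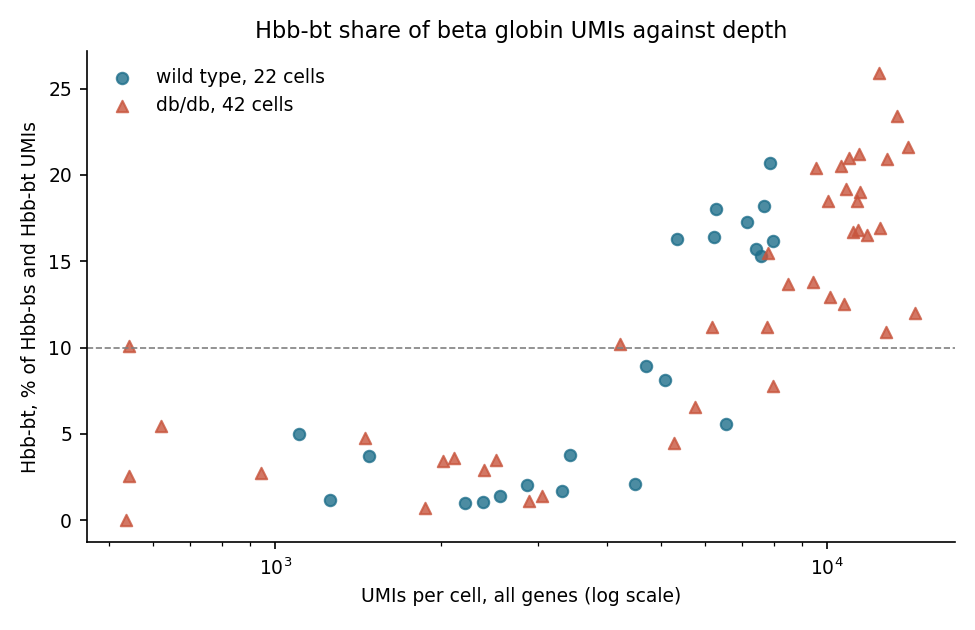
Share of Hbb-bt among beta globin UMIs (vertical axis, percent) against all UMIs of the cell (horizontal axis, log scale) for each of the 22 wild-type (circles) and 42 db/db cells (triangles). The dashed line marks 10%; 9 wild-type and 27 db/db cells lie at or above it, all but 1 of them (543 UMIs) with at least 4209 UMIs.

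A line at an Hbb-bt share of 10%, with no cell between 8.92% and 10.1%, was used to describe 2 ranges of cells. The line at 10% was chosen after the values were seen, 10 cells lay between 7.5 and 12.5%, and the ranges are parts of a gradient and not cell types. At or above it were 36 cells (9 wild type, 27 db/db), with a median of 7420 and 10960 UMIs in the respective libraries. Below it were 28 cells (13 and 15), with medians of 2865 and 2107. The 2 libraries thus differed in their mix of these ranges.

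Several erythroid transcripts were counted mostly in cells with a high Hbb-bt share, which are also the deeper cells. Bpgm, which makes the 2,3-bisphosphoglycerate that lowers the oxygen affinity of haemoglobin, had 315 UMIs in the 36 cells at or above the line and 6 in the 28 below it. The ubiquitin ligase gene Mkrn1 had 374 and 13 UMIs, and Cd24a, which encodes a surface glycoprotein of immature red cells, 52 and 0. To allow for the difference in depth, the counts were also scaled to globin UMIs. Per 10000 globin UMIs Bpgm was at 9.86 (8.80 to 11) and 0.861 (0.316 to 1.87), Mkrn1 at 11.7 (10.6 to 13.0) and 1.87 (0.994 to 3.19), and the glutathione peroxidase gene Gpx1 at 4.29 (3.60 to 5.07) and 0.287 (0.0348 to 1.04). On the same scale the intervals of Alas2 overlapped, at 9.99 (8.92 to 11.1) and 7.75 (5.82 to 10.1). By library it was at 9.87 (7.49 to 12.8) and 9.70 (6.76 to 13.5) in wild-type cells, and at 10 (8.83 to 11.3) and 5.65 (3.40 to 8.83) in db/db cells. The ferritin light chain gene Ftl1 was at 11.2 (10.1 to 12.4) and 10.6 (8.34 to 13.3), and Oaz1, which encodes the antizyme that limits polyamines, at 9.73 (8.68 to 10.9) and 7.32 (5.45 to 9.63). The ubiquitin gene Ubb went the other way, at 7.39 (6.47 to 8.39) and 11.5 (9.11 to 14.3). So did Tpt1, a translationally controlled protein gene, at 11.5 (10.3 to 12.7) and 17.4 (14.4 to 20.8). In db/db cells Ubb was at 6.25 and 14.6 and Tpt1 at 9.48 and 19.6. In wild-type cells they were at 12.4 and 8.6 and at 20.4 and 15.2. Rod marker UMIs per cell had medians of 22 and 26.

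**Figure D2:**
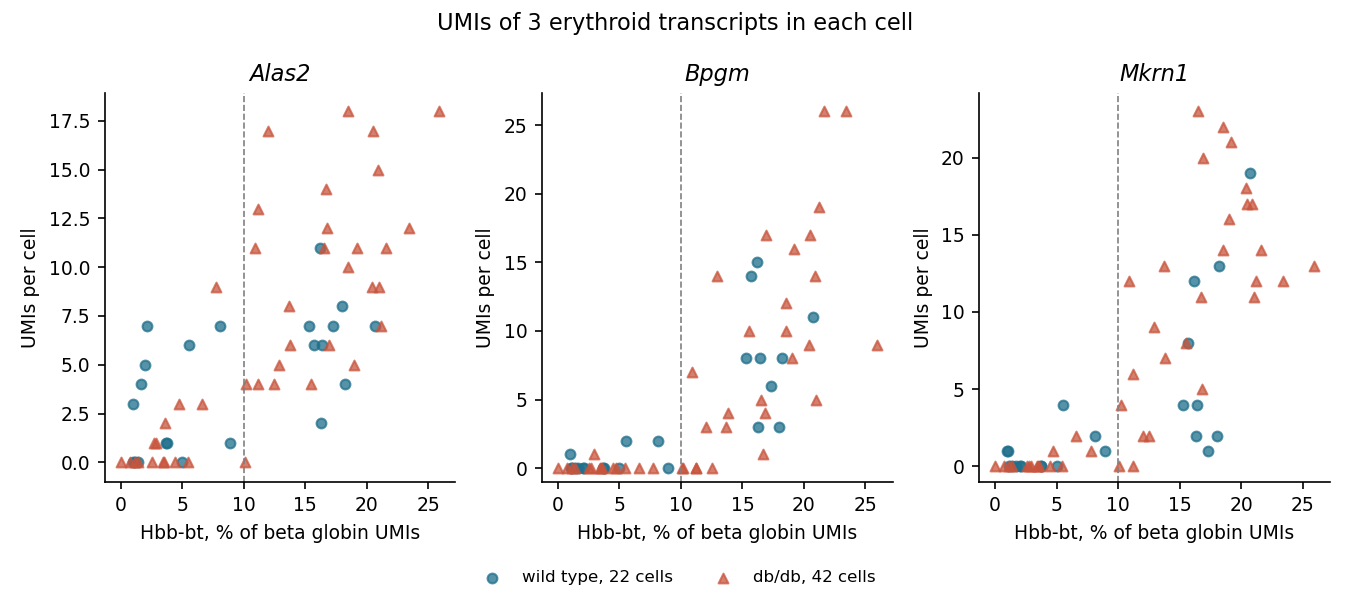
UMIs per cell of Alas2, Bpgm and Mkrn1 (vertical axes) against the Hbb-bt share of beta globin UMIs (horizontal axes, percent) in 22 wild-type cells (circles) and 42 db/db cells (triangles), with the line at 10% dashed. Bpgm and Mkrn1 lie at 0 to 4 UMIs in every cell left of the line, while Alas2 reaches 9 UMIs there.

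The non-globin RNA of the members was a mixture of erythroid transcripts, ribosomal protein and mitochondrial transcripts, and RNA of the retina. Levels below are UMIs per 10000 non-globin UMIs, summed over members of a library. The most counted gene was Gm42418, which lies at a ribosomal RNA locus on chromosome 17, at 505 in wild-type and 578 in db/db members, against 149 and 154 in the other cells. The overlapping antisense gene AY036118 was at 68.0 and 55.6, and reads of this pair cannot be divided without the strand. Malat1, a nuclear long noncoding RNA, was at 309.6 and 254, lower than in other cells, at 565 and 585. Tpt1, a translationally controlled protein gene, was at 173 and 131, and Ftl1 at 119 and 130.0. Alas2 was at 91.7 (74.0 to 112) and 117 (104 to 132), against 0.00197 and 0.00419 in the other cells. Alas2 UMIs per cell ran from 0 to 11 for wild type (median 4.5) and from 0 to 18 for db/db (median 5.5). The 4 wild-type and 10 db/db members without it were mostly shallow, with medians of 1822 and 1942 UMIs and at most 2560 and 5281.

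**Figure D3:**
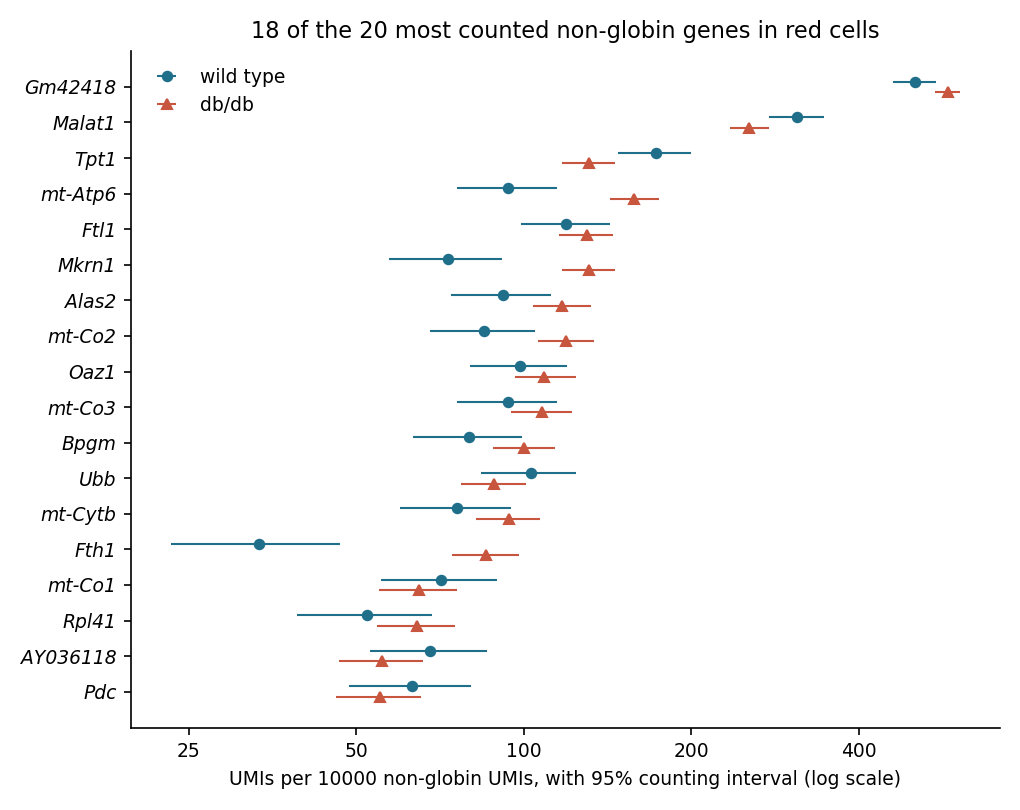
Levels of 18 of the 20 non-globin genes with the most UMIs in members (horizontal axis, UMIs per 10000 non-globin UMIs, log scale) for the wild-type (circles) and db/db library (triangles), with 95% Poisson intervals as bars. Most pairs of intervals overlap. Those of Fth1 (33.5 and 85.7), Mkrn1 (73.0 and 131), mt-Atp6 (93.7 and 158), mt-Co2 (84.8 and 119) and Tpt1 (173 and 131) do not. Those of Malat1 (309.6 and 254) meet at 276, to the nearest whole number.

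Against all other cells, 264 genes could be judged, having 20 UMIs observed in members or expected there from the other cells. Of these, 71 were at least 2-fold higher in members (26.9%) and 25 at least 2-fold lower (9.47%). Many of the higher genes were judged only because they reached 20 UMIs in members, which by itself calls for a high ratio, so these shares say little. From the other cells alone, 185 genes were expected to reach 20 UMIs, and of these 16 were at least 2-fold higher and 25 lower. Of the erythroid lists 6 genes were among the 185. Oaz1 was 7.36-fold, Fth1 5.18-fold, Ubb 3.87-fold and Epb41, the protein 4.1 gene, 3.55-fold higher in members, while Aldoa (1.05-fold) and Ldha (0.688-fold), both enzymes of glycolysis, were not past 2-fold. Of 37 ribosomal protein genes 8 were at least 2-fold higher, of 9 mitochondrial genes 0, and of 21 retinal markers 0 were higher and 2 lower. These are descriptions of cells chosen by their RNA, and no test of them was made.

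The genes highest relative to other cells were, after Alas2, 3 genes of RNA and protein turnover. Isg20, an exonuclease gene, was at 27.6 in wild-type and 38.0 in db/db members and at 0.00899 over all other cells. Ube2l6, a ubiquitin and ISG15 conjugating enzyme gene, was at 39.4 and 31.8 against 0.0131. Tent5c, which encodes a poly(A) polymerase, was at 23.7 and 40.1 against 0.0149. Cd24a was at 3.94 and 20.1 against 0.0145, and Ucp2, a mitochondrial carrier gene, at 13.8 and 15 against 0.0318. Plaat3, a phospholipase gene, was 62.4-fold higher than in other cells (41.9 to 89.6) and March2, a ubiquitin ligase gene, 44.9-fold (34.3 to 57.7). Outside the naming rule, and chosen after their values were seen, the iron-sulphur cluster genes Isca1 and Bola3 were 23.8-fold and 10.5-fold higher.

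Haem synthesis genes were dominated by the first and last steps of the pathway and by its mitochondrial carriers. Summed over 18 genes the list was at 133 in wild-type (112 to 158) and 209 in db/db members (191 to 228), against 4.53 and 4.72 in the other cells. Slc25a37, the mitochondrial iron importer mitoferrin, was at 14.8 and 42.2, Slc25a39, a mitochondrial glutathione carrier, at 13.8 and 23.4, and Fech, which inserts iron into the ring, at 8.87 and 18.0. Each of the other 14 genes of the list had 4 UMIs or fewer over both libraries.

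Iron genes were represented by ferritin and not by the uptake receptor. Ftl1 was at 127 over the members of both libraries, 40.3-fold above other cells (36.5 to 44.3), and the heavy chain gene Fth1 at 70.1, 5.18-fold above them (4.54 to 5.88). Ncoa4, the receptor that carries ferritin into autophagy, was at 5.92 in wild-type and 10.0 in db/db members. The transferrin receptor gene Tfrc, which reticulocytes lose as they mature, had 1 UMI in each library.

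Genes of reticulocyte maturation, autophagy and ubiquitin formed the most abundant erythroid list, at 511 in wild-type (468 to 557) and 642 in db/db members (610.1 to 675), against 62.6 and 57.1 in other cells. Mkrn1 was at 73.0 and 131, Oaz1 at 98.6 and 109, and the ubiquitin gene Ubb at 103 and 88.6. Bnip3l, the receptor for clearance of mitochondria in reticulocytes, was at 18.7 and 33.8. The autophagosome genes Map1lc3b and Gabarapl2 were at 24.6 and 31.3 and at 21.7 and 25.9.

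Among metabolic and antioxidant enzymes, Bpgm led at 79.9 and 100.3, 115-fold above other cells (103 to 129). Gpx1 was at 26.6 and 46.8, 109.8-fold above them, and the peroxiredoxin gene Prdx2 at 11.8 and 30.1, 12.2-fold above them. The list as a whole was at 174 (149 to 201) and 274 (254 to 296), against 60.4 and 63.1. Membrane genes were lower, at 37.5 (26.5 to 51.4) and 68.5 (58.4 to 79.9), against 18.9 and 19.2. Epb41, the protein 4.1 gene of the membrane skeleton, gave 83 of their UMIs, Cd24a 52 and Slc4a1 8.

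Genes of earlier erythroid stages were hardly detected. The list of 18 erythroid transcription factor and chaperone genes, of which 17 were in the files, gave 3 wild-type and 14 db/db UMIs, which is 2.63-fold the level in other cells (1.53 to 4.22). The 20 progenitor and proliferation genes had 7 and 18, which is 0.581-fold the level in other cells (0.376 to 0.858).

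**Figure D4:**
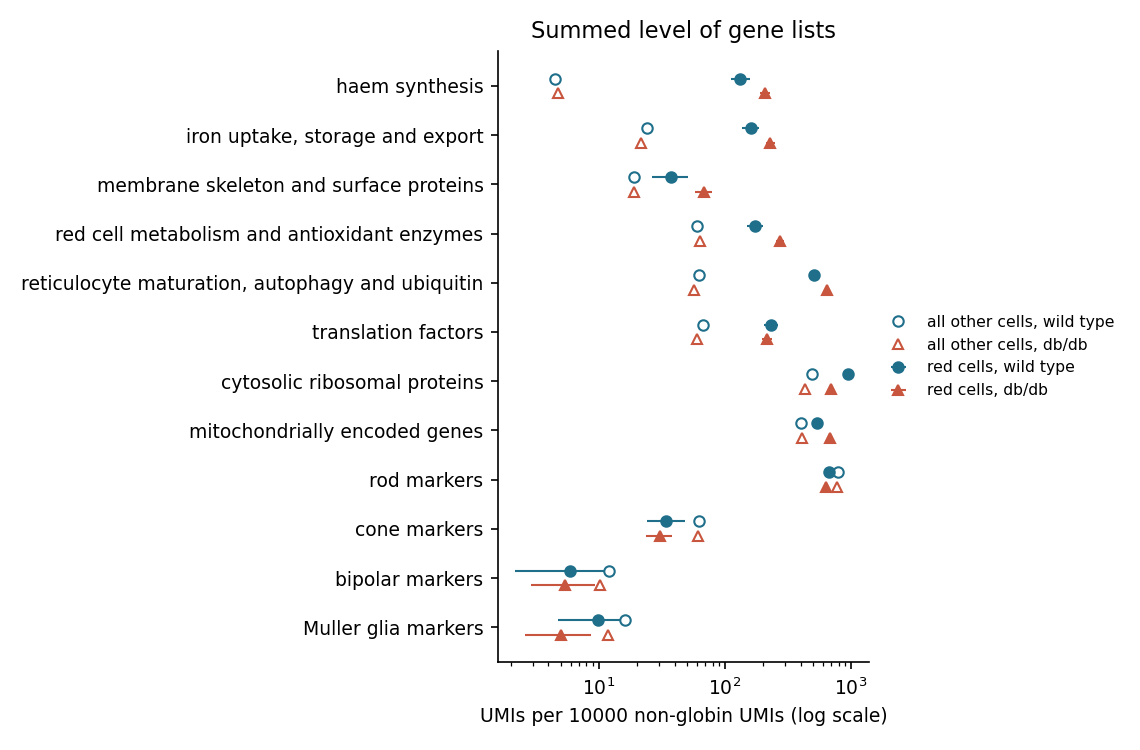
Summed level of 12 gene lists (horizontal axis, UMIs per 10000 non-globin UMIs, log scale) in members (filled, with 95% Poisson intervals) and in all other cells (open) of the wild-type (circles) and db/db library (triangles). Haem genes are at 133 and 209 in members against 4.53 and 4.72 elsewhere, while rod markers are at 665 and 632 against 789 and 773.

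Ribosomal protein genes and, through Tpt1 and Pabpc1, the list of translation factors stood above other cells. The list stood at 234 and 218, against 66.9 and 59.8 in other cells. Tpt1 gave 175 of its 237 wild-type and 313 of its 521 db/db UMIs, and Pabpc1, the poly(A)-binding protein gene, 17 and 96. Of its 4 measured genes, these 2 were at least 2-fold higher than in other cells. Eif1 was at 1.05-fold (0.801 to 1.34) and Eef1a1 at 0.791-fold (0.501 to 1.19). Ribosomal protein genes stood at 956 (897 to 1019) and 693 (659.8 to 727), against 493 and 435. Rpl41 was at 52.3 and 64.3, 9.11-fold above other cells, and Rplp0 at 48.3 and 20.1, 10.4-fold above them. Mitochondrially encoded genes stood at 537 (493 to 584) and 684 (651 to 718), against 402 and 411, and made up a median of 4.18% and 4.27% of a member's non-globin UMIs, against 3.38% and 3.04% in other cells.

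Rod transcripts were present in every member. The 18 rod markers together stood at 665 (615 to 717) in wild-type and 632 (601 to 665) in db/db members, against 789 and 773 in all other cells, a fold of 0.821 (0.787 to 0.856). They made up 3.21 to 10.4% of a wild-type member's non-globin UMIs (median 6.82%) and 2.36 to 11.4% of a db/db member's (median 6.11%), against medians of 7.35% and 7.45% in other cells. Rod UMIs per member did not follow depth, with a Spearman correlation with all UMIs of -0.05 in wild-type and 0.18 in db/db cells. Cone markers were at 34.5 and 30.5 against 62.2 and 60.9, and Opn1sw, the short-wave cone opsin, had 2 UMIs over all members. Bipolar markers had 6 and 13 UMIs, Muller glia markers 10 and 12, and pericyte or smooth muscle markers 6 and 18, all of the last from Vtn. Endothelial, amacrine and pigment epithelium markers had 0 or 1 UMI in each library. The nuclear and RNA-quality transcripts, dominated by Gm42418 and Malat1, summed to 883 and 888 against 730.3 and 757. The part of free retinal RNA or of joined cells in the non-globin UMIs was not tested.

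Between the libraries, most measured genes were less than 2-fold apart. Of 207 measured genes, 23 were at least 2-fold higher in db/db members (11.1%) and 17 at least 2-fold lower (8.21%). The log2 ratio of db/db to wild-type level had a median of 0.11 over the 207 genes. This scale matters, because db/db members had 12.3 globin UMIs per non-globin UMI and wild-type members 9.35. Per UMI of all genes the median was -0.26, with 8 genes at least 2-fold higher and 28 lower. Ratios are given below per non-globin UMI, and the second scale is named where it turns the direction.

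The erythroid lists for membrane, metabolic, haem and iron genes had higher summed levels in db/db members. The median gene of the 207 was at 0.11, against which these ratios are read. The log2 ratio was 0.87 for membrane genes (0.35 to 1.42), 0.66 for metabolic and antioxidant enzymes (0.42 to 0.91), 0.65 for haem synthesis (0.37 to 0.93) and 0.51 for iron genes (0.26 to 0.77). Over all 207 measured genes, 11.1% were at least 2-fold higher, and each of these lists holds few measured genes. Of the measured genes, 2 of 4 in the haem list, 1 of 3 in the iron list, 3 of 7 in the metabolic list and 1 of 2 in the membrane list were at least 2-fold higher, and 0 lower. In the membrane list that gene was Cd24a, which gave 48 of the 164 db/db UMIs, and Epb41, which also stands in the metabolic list, was at 0.94. For the maturation list the log2 ratio was 0.33 (0.18 to 0.48), with 1 of 13 genes at least 2-fold higher, but it was -0.03 per UMI of all genes. The sparse lists of erythroid transcription, at 0.98 (-0.86 to 3.42), and of progenitor genes, at 0.12 (-1.20 to 1.63), had intervals that included 0. Mitochondrially encoded genes were at 0.35 (0.21 to 0.49), and at -0.01 per UMI of all genes.

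Ribosomal protein genes were at a lower summed level in db/db members, at a log2 ratio of -0.47 (-0.58 to -0.35) and of -0.83 per UMI of all genes. A single wild-type cell, with 193 of the 970 wild-type ribosomal protein UMIs against a median of 32.5 per cell, moved this value. Without it the ratio was -0.23 (-0.35 to -0.10), and without the cell with the most such UMIs in each library it was -0.38 (-0.51 to -0.25). The direction was not particular to red cells. In all other cells these genes stood at 493 per 10000 non-globin UMIs for wild type and 435 for db/db. Of 57 measured ribosomal protein genes 14 were at least 2-fold lower in db/db members and 1 was at least 2-fold higher, and the median over the 57 was -0.47. Over all 207 measured genes, 8.21% were at least 2-fold lower and 11.1% at least 2-fold higher. Rps12 gave 45 wild-type and 27 db/db UMIs, a log2 ratio of -1.98. Rps24 had 43 and 32, a ratio of -1.66, and Rplp0 49 and 48, a ratio of -1.27. These 3 were chosen after their values were seen, and for each of them 17 of the wild-type UMIs lay in 1 cell, which for Rplp0 was another cell. Without the wild-type cell with the most ribosomal protein UMIs their ratios were -1.38 (-2.19 to -0.56), -1.02 (-1.82 to -0.22) and -0.91 (-1.56 to -0.24). Rod markers were near 0, at -0.07 (-0.20 to 0.06), but at -0.43 per UMI of all genes and at -0.62 with a globin threshold of 25%.

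**Figure D5:**
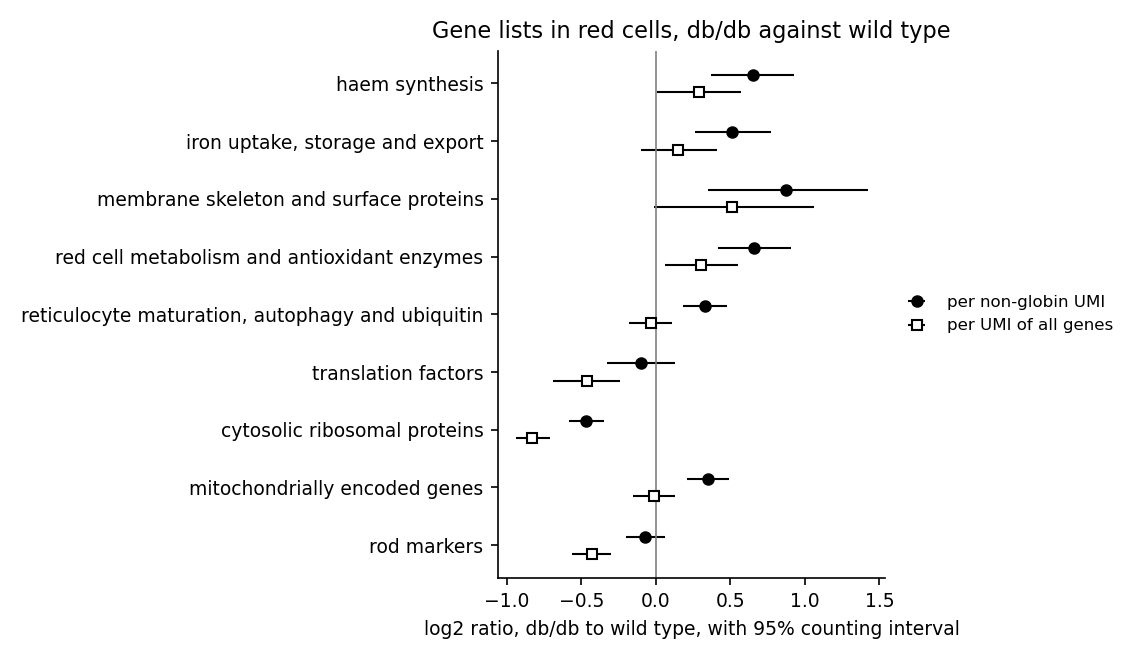
log2 ratio of db/db to wild-type members (horizontal axis) for 9 gene lists, per non-globin UMI (filled circles) and per UMI of all genes (open squares), with 95% counting intervals and the line of equal levels at 0. Ribosomal protein genes lie below 0 on both scales, at -0.47 and -0.83, while the maturation list and mitochondrially encoded genes lie above 0 on the first scale only.

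The same lists were compared within the Hbb-bt ranges, since the libraries differed in their mix. Among cells with Hbb-bt at or above 10% the log2 ratio was 0.53 for haem genes (0.20 to 0.88) and 0.90 for membrane genes (0.24 to 1.61). There it was 0.18 for metabolic enzymes (-0.08 to 0.45) and 0.01 for the maturation list (-0.16 to 0.17), so both intervals included 0 among these cells. Among cells below 10% the haem list was at -0.80 (-1.50 to -0.13), on 47 wild-type and 32 db/db UMIs, and the maturation list at -0.52 (-0.90 to -0.14). The iron list was at -0.41 (-0.99 to 0.16) and the membrane list at -0.44 (-1.59 to 0.69) there, while metabolic enzymes were at 0.46 (-0.23 to 1.16). In the range above, the iron list was at 0.35 (0.04 to 0.66). Ribosomal protein genes were at -0.63 (-0.77 to -0.48) at or above 10% and at -0.47 (-0.67 to -0.26) below it. Without the wild-type cell that held 193 of the 545 wild-type ribosomal protein UMIs of the upper range, the first value was -0.18 (-0.35 to -0.01). The difference between the ranges was not tested.

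The genes with the highest ratio by the nearer bound of the interval were Cd24a, Fth1, Elob, Slc25a37, Pabpc1 and Mkrn1. Cd24a had 4 UMIs in 4 of 22 wild-type and 48 UMIs in 18 of 42 db/db cells, a log2 ratio of 2.35 (0.90 to 4.28). Fth1 UMIs per cell ran from 0 to 5 (median 1) for wild type and from 0 to 25 (median 3.5) for db/db, a log2 ratio of 1.35 (0.82 to 1.92). The ranges overlapped for both genes. Elob, an elongin subunit gene, had 1 and 24 UMIs, a ratio of 3.35 with a wide interval (0.73 to 8.71). Slc25a37 was at 1.51 (0.72 to 2.40), Pabpc1 at 1.26 (0.51 to 2.10) and Mkrn1 at 0.84 (0.47 to 1.23). These ratios do not allow for the mix of Hbb-bt ranges. Among cells at or above 10%, levels per 10000 non-globin UMIs overlapped for Mkrn1, at 136 (105 to 173) for wild type and 176 (157 to 197) for db/db. Those of Cd24a, at 8.34 (2.27 to 21.4) and 27.3 (20.1 to 36.2), also overlapped. Those of Pabpc1 met at 43.7. Those of Fth1, at 52.1 (33.7 to 77) and 109 (94.3 to 126), and of Slc25a37 lay apart.

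At the low end, where ribosomal protein genes are left out by the naming rule (14 of the 17 genes at least 2-fold lower were ribosomal protein genes), stood Rp1, Tpt1, Agpat3, Malat1, Mir124-2hg and H3f3b. Of these genes only Tpt1 stood above other cells in members of both libraries together, at 9.87-fold. Rp1 was at 0.478-fold, Agpat3 at 0.763-fold, Malat1 at 0.471-fold, Mir124-2hg at 0.685-fold and H3f3b at 0.729-fold. Between the libraries Rp1, a rod axoneme gene with 50 and 49 UMIs, had a log2 ratio of -1.27 (-1.87 to -0.67). The highest count of Rp1 in a wild-type cell was 13. Agpat3, a phospholipid acyltransferase gene, was at -1.16 (-2.20 to -0.11), Tpt1 at -0.40 (-0.67 to -0.12) and Malat1 at -0.28 (-0.48 to -0.08). In all other cells Tpt1 was also lower for db/db, at 13 per 10000 non-globin UMIs against 15.9 for wild type. With the threshold lowered to 25% of globin, which adds 1 wild-type and 4 db/db cells, Malat1 was at 0.30 (0.12 to 0.48). The intervals of Mir124-2hg, at -0.90 (-1.83 to 0.05), and of the histone gene H3f3b, at -0.52 (-1.16 to 0.14), included 0. Alas2 was close to equal, at 0.35 (0.01 to 0.71), and at -0.01 per UMI of all genes.

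Genes of the interferon response list had few UMIs, unevenly divided. Isg15, a ubiquitin-like protein gene induced by interferon, had 11 UMIs in 7 of 22 wild-type cells, with at most 3 in a cell, and 0 UMIs in 42 db/db cells. With 3 UMIs set for the db/db library, the log2 ratio was at most -3.11, leaving out the counting error of the 11 wild-type UMIs. Irf7, an interferon regulatory factor gene, had 5 UMIs in 2 wild-type cells and 0 in db/db cells, while Rsad2, an antiviral enzyme gene, had 5 and 7 UMIs. The remaining 12 of the 15 genes had 0 UMIs in members. The list as a whole, with 21 and 7 UMIs, was at -2.82 (-4.30 to -1.54). None of these genes reached the 20 UMIs of a measured gene.

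A few cells carried much of the db/db total. The 5 db/db cells with over 1000 non-globin UMIs (1084 to 2211) held 32.7% of the non-globin UMIs of that library's members, and the single such wild-type cell (1098) held 10.8%. The db/db cell with 2211 had 144 Malat1 UMIs and 1266 non-globin genes, against a median of 8 Malat1 UMIs in db/db members. Without cells over 1000 non-globin UMIs the log2 ratio of ribosomal protein genes was -0.66 (-0.79 to -0.52), that of iron genes 0.78 (0.51 to 1.05), that of the maturation list 0.54 (0.38 to 0.69), that of mitochondrially encoded genes 0.16 (0.01 to 0.32) and that of rod markers -0.29 (-0.44 to -0.14). This comparison was added after the data were seen.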

How the data were processed

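Retinal cells of 1 wild-type and 1 db/db library were analysed, each from 2 mice. The deposited values were raw UMI counts per gene and barcode that the authors made with cellranger 6.0.1, per the file headers, on mm10, per the submitters' processing notes. The matrices held 35642274 and 33742189 counts over 32285 genes. The use of read strand and the annotation release are not given in the sources used here. Members and gene lists were chosen with earlier results of these data known. The 10 globin genes were left out of non-globin totals. Levels of summed counts have exact Poisson intervals, ratios exact conditional binomial intervals, and a count of 0 was set to 3 UMIs per library in a ratio. The interval code was tested on simulated data. Doublets were not removed, since the selection takes all barcodes. Named were all globin genes and Alas2, the 20 non-globin genes with the most UMIs, the 15 highest relative to other cells with a UMI in at least 3 cells of each library, up to 5 genes of each described list, and the 6 highest and 6 lowest ratios by the nearer interval bound, without globin, mitochondrial, ribosomal protein, Gm, Rik and sex-linked genes. Some genes that this rule selects are not reported here. Positions came from GENCODE M21 (GRCm38), which held 32235 of the genes, and promoters from RefSeq. No p-value was computed. Alternatives changed the globin threshold, cell filters, weights and denominators. Python 3.11.15, numpy 2.4.6, scipy 1.17.1 and pandas 2.3.3 were used.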

Additional observations from a re-analysis of the deposited data

How the results depend on the processing

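The shares of red cells, their ratio and the list and gene ratios were recomputed under other settings; those with Hbb-bt at or above 10% and without cells over 1000 non-globin UMIs were added after the data were seen. Depth limits all gene results, since 207 genes reached 20 UMIs. No paired analysis was possible because each genotype has 1 library and no test was made. The share of red cells was higher for db/db under each of the 6 alternatives run for it, at ratios of 1.46 to 1.86, but the interval included 1 at thresholds of 75% and 90%, with the gene and mitochondrial filter and with at least 1000 UMIs. At a globin share of at least 90% the shares were 0.126% and 0.235%. Hbb-bt made up 13.8% of wild-type beta UMIs at that threshold, 9.06% and 11.9% with equal weight per cell, and 15.6% in db/db cells without cells over 1000 non-globin UMIs.

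At a threshold of 25%, which adds 1 wild-type and 4 db/db cells, the log2 ratios were 0.33 for haem, 0.21 for iron, 0.03 for maturation, -0.44 for translation factors, -0.63 for ribosomal proteins, 0.07 for mitochondrial genes and -0.62 for rod markers; Malat1 turned to 0.30 and Gm42418 to -0.08, and 36 genes were at least 2-fold higher. At 75% mitochondrial genes were at 0.11, and at 90% ribosomal proteins were at -0.82 and 7 genes were at least 2-fold lower. With equal weight per cell mitochondrial genes were at 0.12.

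Per UMI of all genes the ratios were 0.29 for haem, 0.15 for iron, 0.30 for metabolism, -0.03 for maturation, -0.46 for translation factors, -0.83 for ribosomal proteins, -0.01 for mitochondrial genes and -0.43 for rod markers; Alas2 was at -0.01 and Gm42418 at -0.17, and 8 genes were at least 2-fold higher and 28 lower. With Hbb-bt at or above 10% they were 0.18 for metabolism, 0.01 for maturation, -0.34 for translation factors, -0.63 for ribosomal proteins, 0.74 for mitochondrial genes and 0.13 for rod markers. Without cells over 1000 non-globin UMIs they were 0.78 for iron, 0.54 for maturation, -0.66 for ribosomal proteins, 0.16 for mitochondrial genes and -0.29 for rod markers. Without the wild-type cell with the most ribosomal protein UMIs, also added after the data were seen, ribosomal proteins were at -0.23. Thinning to 500 UMIs, globin included, left a median of 44.5 and 34.5 genes per cell. The change of scale follows from the denominator; for the other settings the cause was not tested. Of 444 pairs of a named gene and an alternative, 403 stayed within the interval of the reported ratio, 37 moved outside it in the same direction or without a called direction, and 4 turned.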

Other observations

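Outside the selected cells, most globin UMIs lay in a few cells with at least 5% globin. Cells under 5% held 660 of the 2701 globin UMIs of other wild-type cells and 1623 of the 11775 of other db/db cells. In other cells with under 5% globin, Hbb-bt made up 10.5% of beta UMIs in the wild-type (7.75 to 13.9%) and 16.8% in the db/db library (14.4 to 19.4%), against 12.4% and 16.1% in the members. Alpha chains made up 36.7% (33.0 to 40.5%) and 43.5% (41.1 to 46.0%) there, against 37.5% and 40.4% in the members. Genes of hypoxia and glucose handling, among them Hif1a with 6 and 12 UMIs, were at 14.8 and 10.0 per 10000 non-globin UMIs, against 15 and 15.7 in other cells, a fold of 0.748 over both libraries (0.532 to 1.02). MHC class I and beta-2 microglobulin genes had 3 UMIs in the members of each library.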
